A study of Mus musculus with 8 samples.

Results

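Ints11, Cptp, Zfp933 and Fbxo44, 4 of the 20660 genes that could be named on the arrays, lie towards the distal end of mouse chromosome 4. The arrays carried 8 probes for them, 2 per gene, among 55681 probes in all. The 8 probes were those annotated with a RefSeq transcript of these 4 genes. The genes themselves were chosen from measured values of these arrays, namely probes of one gene that disagreed and signals that separated female from male embryos, so presence, disagreement and sex differences of these probes are given below as descriptions, with no test of them. All 8 probes passed the filter on dim signals that left 29718 probes for testing. To pass, a probe needed a well-above-background call and a signal no lower than the 20th percentile on at least 4 of 8 arrays. Because 4 embryos were male, a probe detected in males alone could pass it.

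The samples were 8 single embryos at embryonic day 8.5, all heterozygous for the hypomorphic Eed allele Eedl7Rn5-1989SB, on a mixed C57bl6/129 background and from wild-type mothers. Eed encodes a core subunit of Polycomb repressive complex 2, and the study asked whether reduced EED function in a father alters expression in genetically matched offspring. Fathers were Eed hypo/hypo for 4 embryos (HOM father) and Eed hypo/wt for the other 4 (HET father). Replicates 1 and 2 of the HOM father group and replicates 1 and 3 of the HET father group were labelled female, and the other 4 male. Sires came from littermate pairs, embryos could share a father, and the line also carried an Oct4GFP transgene. P-values therefore measure the spread between these embryos only. The first number of the embryo identifiers, whose meaning the labels do not state, was 183, 185, 188 and 188 for the HOM father group in replicate order and 184, 184, 246 and 237 for the HET father group.

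INTS11 is the catalytic endonuclease of the Integrator complex, which cleaves nascent small nuclear RNAs and other transcripts of RNA polymerase II. CPTP moves ceramide-1-phosphate between membranes and belongs to the glycolipid transfer protein (GLTP) family. ZFP933 is a zinc finger protein whose gene sits in a cluster of related zinc finger genes, and FBXO44 is an F-box protein, the substrate-binding subunit of an SCF ubiquitin ligase. An array probe reports hybridisation to a short stretch of a transcript, and mice of a mixed background can inherit either strain's version of a locus. Strain of origin was not genotyped in these embryos and the probe sequences were not used here. Sex and strain haplotype therefore cannot be told apart by these data.

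In RefSeq's order of the 942 genes of chromosome 4 with a tested probe, Zfp933 was the 816th, Fbxo44 the 829th, Cptp the 928th and Ints11 the 929th. Cptp and Ints11 are adjacent and are transcribed away from each other from nearby start sites. The stretch around these starts is shown because the genes sharing it gave the widest probe disagreement of the 4, partly below background for Cptp. It is the RefSeq promoter window of Ints11 on GRCm38.p6, chr4:155869317-155869616, forward strand, 300 bases, with the 126 bases between the start sites of Cptp and Ints11 in capitals.
Ints11 and Cptp promoter: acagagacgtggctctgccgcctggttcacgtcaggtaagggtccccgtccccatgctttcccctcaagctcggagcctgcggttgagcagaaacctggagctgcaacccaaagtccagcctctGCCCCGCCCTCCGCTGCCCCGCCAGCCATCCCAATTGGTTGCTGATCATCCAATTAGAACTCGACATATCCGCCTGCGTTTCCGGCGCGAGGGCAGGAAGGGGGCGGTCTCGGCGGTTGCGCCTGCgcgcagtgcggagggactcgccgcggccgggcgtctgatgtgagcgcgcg
The window held 3 matches to CCAAT and 2 to GGGCGG, counting both strands, all of them between the start sites. CCAAT was present in 37.4% and GGGCGG in 35.7% of 32851 RefSeq promoter windows of the same length. It held 30 CpG dinucleotides, and 11.7% of the windows held at least as many. These are matches of letters in a reference window and were not measured in the embryos.

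Signals are log2 of Agilent's processed intensity minus the 75th percentile of the array, so that 0 is the 75th percentile and a difference of 1 is 2-fold. Levels are compared between embryos for 1 probe and never between probes. Between 51.9% and 60.8% of spots were well above background on an array, with the highest share on HOM father replicate 1, and arrays correlated at 0.988 to 0.993 within a father group and 0.982 to 0.992 between groups. Of 19 marker genes of embryonic tissue, 18 were detected on all 8 arrays. Of 6 placental and decidual markers, Prl3d1 and Prl8a2 were detected in every embryo and 3 in none, and the ranges overlapped between the sexes (Prl8a2 from -1.42 to 4.14 in females and from -3.99 to 4.45 in males). The Y-linked genes Ddx3y and Eif2s3y were detected in the 4 labelled males and in no labelled female. All 7 Xist probes were detected in every female, and 2 of them also in 1 male, HOM father replicate 4 (A_30_P01022001 at -1.54, against 3.17 to 4.00 in females). HOM father replicate 4 gave member signals close to those of HOM father replicate 3 throughout.

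The catalytic Integrator subunit gave the widest split between probes. Ints11 probe A_55_P2036638 was well above background in all 8 embryos, with signals of 3.33, 3.42, 3.20 and 3.09 in HOM father replicates 1 to 4 and 3.49, 3.31, 3.67 and 3.38 in HET father replicates 1 to 4. It was high in every embryo and spanned 0.58. The other Ints11 probe, A_55_P2145307, gave -8.02, -5.52, 1.12 and 1.11 in the HOM father group and -6.17, 1.40, -5.51 and 1.34 in the HET father group. It was well above background in 4 of 4 males and 0 of 4 females, and the sexes lay far apart in both father groups. By Agilent's looser call of a positive and significant signal it was present in 7 of 8 embryos. The male mean was 1.24 ± 0.15 (SD, n = 4). Set against the lowest signal among detected probes on each female array, the male mean was 91.1-fold higher. This reference level is used here and for other probes missing from females because a signal under background has no measured level. It is not a strict lower bound, since some undetected probes lay above it. HET father replicates 1 and 2 share the identifier number 184 but are a female and a male, and fell on opposite sides at this probe (-6.17 and 1.40).

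Cptp, on the other side of the shared promoter, repeated the arrangement at a lower signal. Probe A_55_P1980119 gave 2.04, 2.18, 2.14 and 2.20 in the HOM father group and 1.65, 2.15, 1.86 and 2.13 in the HET father group, detected in all 8 embryos. The 2 HET father females were lowest, and the sexes overlapped. Probe A_55_P2084522 gave -7.94, -6.98, -3.08 and -3.05 in the HOM father group and -7.77, -3.08, -6.91 and -2.998 in the HET father group. This dim probe was detected in 4 of 4 males and 0 of 4 females. The males were nearly equal, at -3.05 ± 0.04 (SD, n = 4), and 4.63-fold above the same reference level on the female arrays. Another background correction (normexp with an offset of 50), which compresses low signals, gave female minus male differences of -1.62 in place of -4.35 for this probe and -5.42 in place of -7.55 for Ints11 A_55_P2145307.

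**Figure D1:**
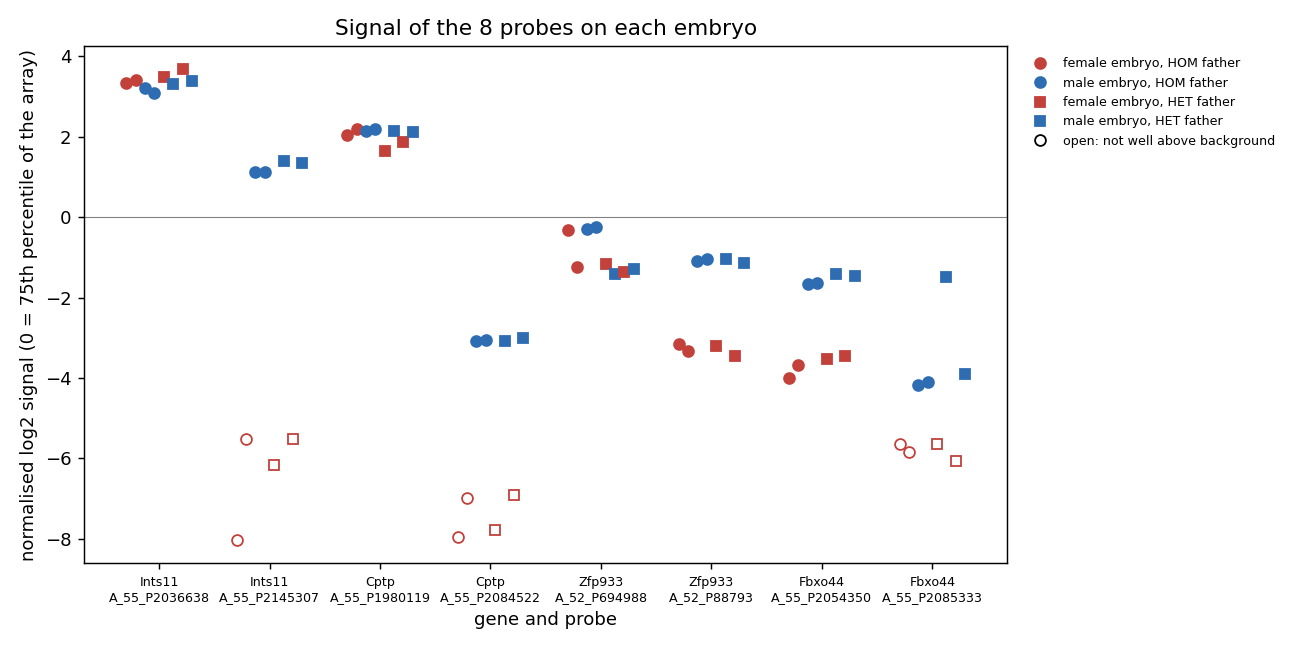
Normalised log2 signal (vertical axis, 0 is the array's 75th percentile) of each of the 8 probes (horizontal axis) on each embryo, in replicate order with the HOM father embryos first. Red marks female and blue male embryos, circles HOM father and squares HET father, and open symbols a probe not well above background. At Ints11 A_55_P2145307 the 4 males sat between 1.11 and 1.40 and no female was detected, whereas Ints11 A_55_P2036638 stayed between 3.09 and 3.67 in all embryos.

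Zfp933, the zinc finger gene, was detected by both probes in every embryo, yet the probes sorted the embryos differently. Probe A_52_P88793 gave -3.14, -3.33, -1.10 and -1.04 in the HOM father group and -3.21, -1.05, -3.45 and -1.13 in the HET father group. All males lay above all females, 4.61-fold on the group means (-1.08 ± 0.04 in males and -3.28 ± 0.14 in females, SD, n = 4 each). Probe A_52_P694988 gave -0.32, -1.24, -0.29 and -0.25 in the HOM father group and -1.16, -1.41, -1.36 and -1.30 in the HET father group. Here 3 embryos were high, HOM father replicates 1, 3 and 4, which include both sexes and carry the identifier numbers 183, 188 and 188. HOM father replicate 2 lay with the HET father embryos. Zfp933 also belongs to the cluster of zinc finger genes described below, in which the direction of the sex difference varied from gene to gene.

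Fbxo44, the F-box gene, had no probe that was steady across embryos. Probe A_55_P2054350, detected in all 8, gave -3.99, -3.69, -1.67 and -1.63 in the HOM father group and -3.53, -1.40, -3.45 and -1.46 in the HET father group. Males did not overlap females and were 4.36-fold higher. Probe A_55_P2085333 gave -5.65, -5.84, -4.17 and -4.11 in the HOM father group and -5.64, -1.49, -6.06 and -3.90 in the HET father group. It was detected in 4 of 4 males and 0 of 4 females, although the looser call found it in all 8 embryos. Males were 3.49-fold above the reference level of the female arrays, and 2.24-fold without HET father replicate 2. The female minus male difference was -1.18 with normexp in place of -2.38. HET father replicate 2 was far above the other 3 males at this probe but not at A_55_P2054350, where the 4 males spanned -1.67 to -1.40.

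Disagreement within a gene was measured as the log2 difference between its 2 probes on each embryo, and its range over the 8 embryos. The Ints11 difference was -11.35, -8.93, -2.08 and -1.97 in the HOM father group and -9.66, -1.91, -9.19 and -2.04 in the HET father group, a range of 9.44. That was the widest of 4400 probe pairs from 3678 genes, whose median range was 0.456, after 6 further pairs with an outlier spot on some array had been left out. The Cptp difference ran from -9.99 to -8.76 in females and from -5.25 to -5.13 in males, a range of 4.86, the ninth widest. Signals were also raised to the lowest detected level of the array before subtraction. The ranges became 7.25 for Ints11, 2.74 for Cptp and 3.18 for Zfp933, and no pair then exceeded Ints11. Part of the Cptp range thus lay below background.

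**Figure D2:**
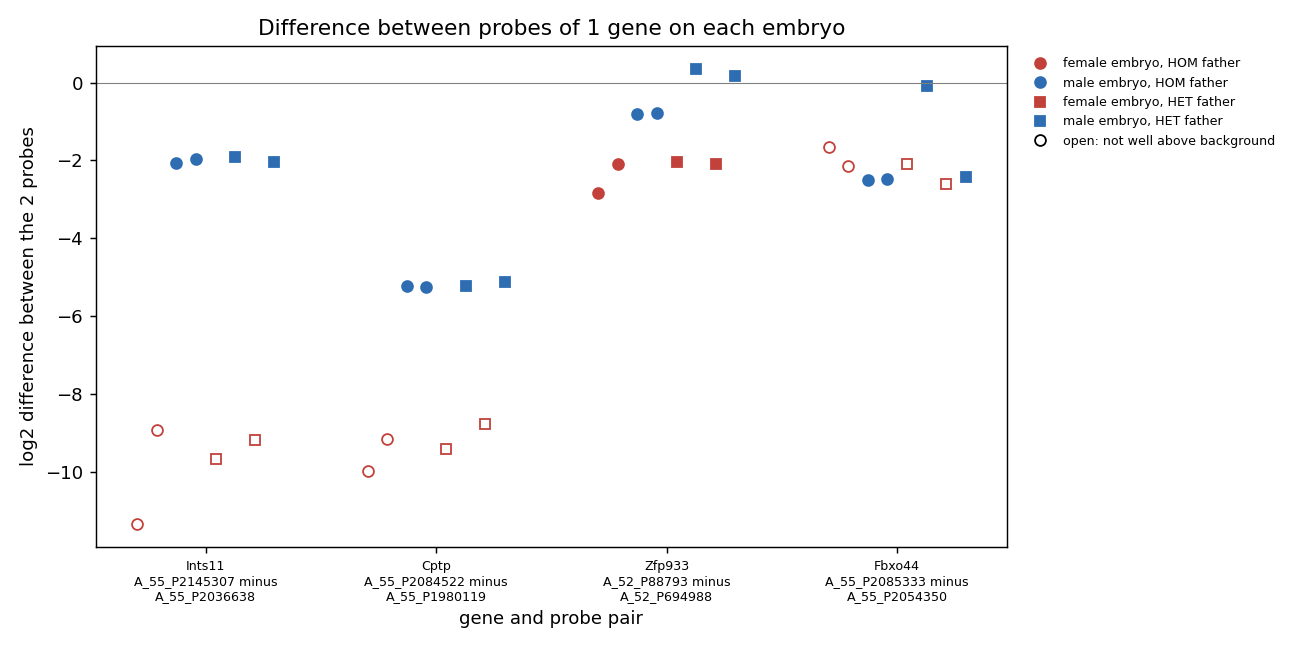
Log2 difference between the 2 probes of each gene (vertical axis) on each embryo, with the probe subtracted named second under each gene. Red marks female and blue male embryos, circles HOM father and squares HET father, and open symbols an embryo in which the first probe was not well above background. Ints11 and Cptp fell into 2 sets by sex, Zfp933 showed a further gap between HOM father and HET father males, and in Fbxo44 a single male, HET father replicate 2, stood near 0.

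The Zfp933 difference was -2.83, -2.09, -0.81 and -0.79 in the HOM father group and -2.05, 0.36, -2.09 and 0.17 in the HET father group, a range of 3.18. Females lay below males, and within males the HET father embryos lay above the HOM father ones. That gap lay in A_52_P694988, since the males were alike at A_52_P88793. The Fbxo44 difference was -1.66, -2.15, -2.50 and -2.48 in the HOM father group and -2.10, -0.09, -2.61 and -2.43 in the HET father group, a range of 2.52. Without HET father replicate 2 that range was 0.948, under the limit of 2 used for calling a pair discordant. Both Fbxo44 probes were low in females, so their difference did not separate the sexes. Ranges of at least 2 were found in 132 of all 4400 pairs, or 3.0%, which included all 4 pairs here because the genes had been selected for disagreement. With normexp 53 pairs reached the limit. The ranges were then 6.14 for Ints11, 2.70 for Zfp933, 1.90 for Cptp and 1.55 for Fbxo44, so that Cptp and Fbxo44 fell under it. Just inside the limit lay pairs of Paqr6, Elavl4 and Gabbr1 (2.00 each), and just outside those of Tmem44 (1.97), Rab3d (1.96) and Nfic (1.96).

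**Figure D3:**
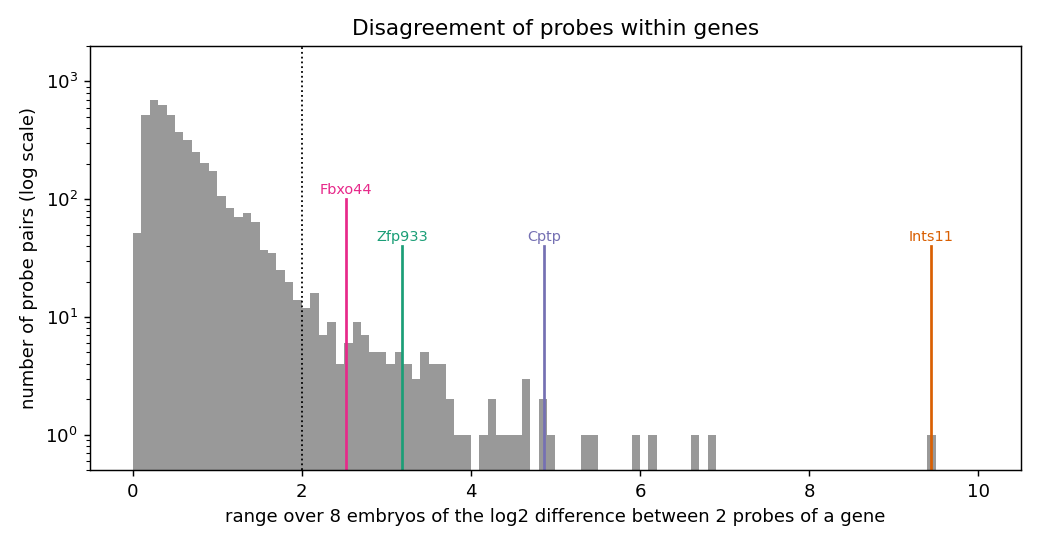
Number of probe pairs (vertical axis, log scale) by the range over 8 embryos of the log2 difference between the probes (horizontal axis, bins of width 0.1). The dotted line marks a range of 2, and coloured lines mark the 4 genes, from Fbxo44 at 2.52 to Ints11 at 9.44.

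The father's genotype was the comparison that had not been used in the choice of genes. It was tested by limma over all 29718 probes, a probe being called when it differed 2-fold or more with an adjusted p under 0.01, and 376 probes (1.27%) were called. None of the 8 member probes was called, and 1 had an unadjusted p below 0.05, against 34.8% of all tested probes. That probe was Zfp933 A_52_P694988, with -0.52 ± 0.48 in HOM father and -1.31 ± 0.11 in HET father embryos (SD, n = 4 each). The difference was 0.78 (SE 0.22), or 1.72-fold higher with a HOM father, with a limma adjusted p of 0.0408, which did not meet the limit. Without HOM father replicate 2, whose signal lay with the HET father group, the difference was 1.02 with an adjusted p of 0.000728 and the probe was called. The call thus rested on a single embryo.

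For the constant probes the father difference was small. Ints11 A_55_P2036638 differed by -0.20 (SE 0.10, limma adjusted p = 0.194) and Cptp A_55_P1980119 by 0.19 (SE 0.11, limma adjusted p = 0.277). For the probes that split by sex, the spread within each father group was wide and the test correspondingly imprecise. HOM father minus HET father was -0.59 (SE 2.75) for Ints11 A_55_P2145307, -0.08 (SE 1.58) for Cptp A_55_P2084522 and 0.06 (SE 0.79) for Zfp933 A_52_P88793. It was -0.28 (SE 0.77) and -0.67 (SE 1.00) for Fbxo44 A_55_P2054350 and A_55_P2085333. Limma adjusted p-values of these 5 lay between 0.678 and 0.980. With sex as a covariate the SE of Ints11 A_55_P2145307 was 0.516 and that of Fbxo44 A_55_P2054350 was 0.0780, and their limma adjusted p-values were 0.463 and 0.0486, again with no call.

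The father was also tested on the difference between probes of a gene. Of the 4400 pairs 15 (0.341%) were called, and none of the 4 pairs here. None of the 4 had an unadjusted p below 0.05, against 31.3% of all pairs. The limma adjusted p-values were 0.947 for Ints11, 0.926 for Cptp, 0.547 for Zfp933 and 0.665 for Fbxo44. The father by sex interaction was called for no probe, with 1342 of 29718 tested probes and none of the 8 member probes at an unadjusted p below 0.05. By the scanner file headers each father group was hybridised on its own slide, so slide and father cannot be told apart.

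Against the whole array, the separation by sex stood among few probes. The same call applied to sex over the whole array gave 18 probes (0.0606%). Ints11 A_55_P2145307, Cptp A_55_P2084522 and Zfp933 A_52_P88793 were on that list because these genes had been chosen for it, which is no test of them. Fbxo44 A_55_P2054350, of a gene chosen for disagreement between probes, was on it too and is likewise only described. The list also held Ddx3y, Eif2s3y and Uty of the Y chromosome and Xist. Detection in all 4 males and no female was seen for 16 probes, of which 3 were member probes, 4 were Y-linked and 3 had no gene placed on a chromosome. The reverse pattern was seen for 15 probes, with 1 placed on chromosome 4 and 4 on the X chromosome. A further 5 were not placed, among them the Xist probes A_30_P01020783, A_30_P01030803 and A_30_P01032945.

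The probes most like each member probe with a range of at least 2 over the embryos were sought by Pearson's r. The candidates were 1400 tested probes, members left out, also with a range of at least 2 over the 8 embryos. These values describe likeness only, since the embryos form 2 clusters and share arrays. Ints11 A_55_P2145307 was nearest to Uty (0.992), Eif2s3y (0.991) and Ddx3y (0.991), genes of the Y chromosome. Cptp A_55_P2084522 was nearest to Uty (0.998), Ddx3y (0.997) and Eif2s3y (0.997). Fbxo44 A_55_P2054350 was nearest to Ddx3y (0.991), Uty (0.984) and a predicted transcript without a gene name, A_55_P1963264 (0.983).

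Zfp933 A_52_P88793 was nearest to A_30_P01025794 (0.997), followed by Ddx3y (0.988) and A_55_P1963264 (0.983). A_30_P01025794, which was also among the 20 nearest probes of Ints11 A_55_P2145307, Cptp A_55_P2084522 and Fbxo44 A_55_P2054350 (0.962 to 0.974), targets a long intergenic non-coding RNA (lincRNA) at chr4:146890596-146891297, forward strand, mm9. The interval had 3 probes, each higher in every male than in every female, with female minus male differences of -2.00, -1.90 and -2.13. They were detected in 4 of 4 males but in 0, 1 and 2 of 4 females, in the same order. These differences thus include female signals under background, which have no measured level. Of 361 tested lincRNA probes on chromosome 4, 13 (3.60%) had no overlap between the sexes. Fbxo44 A_55_P2085333 differed from the other 4 member probes compared. It was nearest to lincRNA probes on chromosomes 2 (0.938) and 16 (0.900) and to A_55_P2023176, which has no transcript name (0.890). These were also highest in HET father replicate 2. None of the 20 probes nearest to Fbxo44 A_55_P2085333 lay on chromosome 4, against 4 of 20 for each of the others. Those 4 were the same probes each time, the 3 of the interval above and lincRNA probe A_30_P01023722. Of 1022 candidates placed on a chromosome, 68 (6.65%) lay on chromosome 4.

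Genes around the members also separated the sexes, by smaller amounts and in both directions. Over all tested probes 564 (1.90%) had no overlap between female and male embryos, on 29718 probes. Leaving out the members, with the gene order of chromosome 4 cut into 10 equal bins, bins 1 to 8 held between 0% and 4.65% such probes each. Bin 9, from Iffo2 to Ctnnbip1 and including Zfp933 and Fbxo44, held 30 of 125 (24.0%), from 27 genes. Of these 17 were higher in females and 13 in males. Bin 10, with Cptp and Ints11, held 11 of 125 (8.80%), of which 3 were higher in females and 8 in males, and 13.6% without HOM father replicate 1. Scaling each array to its median, which moved the median female minus male difference of all tested probes from 0.01 to 0.10, changed these splits to 17 and 5 in bin 9 and 8 and 0 in bin 10. The balance of directions thus depended on the scaling, in bin 10 entirely. By chromosome, over tested probes with a known place and without the members, the share was 4.25% on chromosome 4. It was 1.17% to 2.40% on the other autosomes and 3.56% on the X chromosome.

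**Figure D4:**
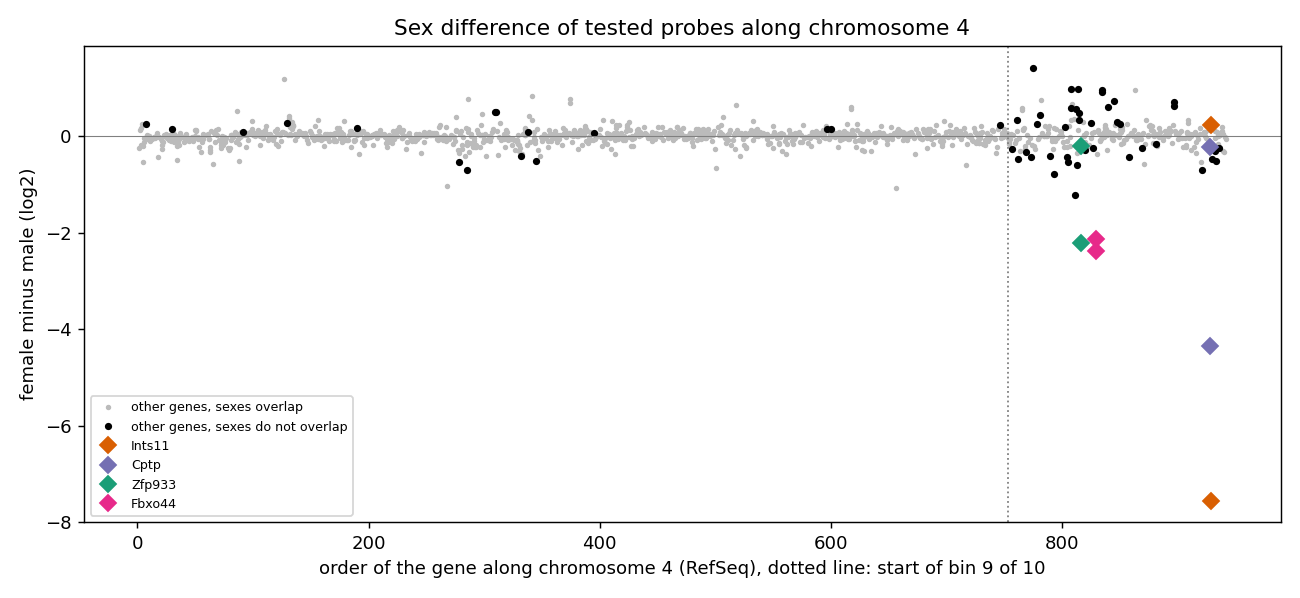
Female minus male log2 difference (vertical axis) of each tested probe by the order of its gene along chromosome 4 (horizontal axis). Grey and black points are other genes whose sexes overlapped or did not, coloured diamonds are the 8 member probes, and the dotted line marks the start of bin 9. Black points crowd to the right of the line on both sides of 0, and the member probes reach -7.55.

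Several of these genes have well known roles. Pdpn, which encodes the membrane glycoprotein podoplanin, averaged 2.42 in females and 3.20 in males at probe A_55_P1961395, a female minus male difference of -0.78, but differed by 0.18 with overlap at its other probe. Both probes of Masp2, a serine protease of the lectin pathway of complement, were higher in females, by 0.95 and 0.91. Both probes of Mmel1, a membrane metalloendopeptidase, were also higher in females, by 0.71 and 0.63. The pairs of Masp2 and Mmel1 thus pointed the same way, whereas that of Pdpn did not. These genes were picked from the values shown, and none was among the 18 sex calls. All 5 separating probes kept the separation and its direction with median scaling, quantile normalisation and normexp.

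Immediate neighbours were taken as the 3 genes on each side of a member. Apart from the members they numbered 18 genes with 23 tested probes, of which 8 had no overlap between the sexes, against 1.90% of all probes. None of the 23 was called for the father, against 1.27% of all probes, and 8 had an unadjusted p below 0.05, against 34.8% of all probes. Around Cptp and Ints11, Pusl1, a pseudouridine synthase gene, differed by -0.47 (female minus male) and 1 of 3 probes of Ube2j2, a ubiquitin-conjugating enzyme gene, by -0.29. Single probes of Dvl1, Tas1r3, Acap3 and Mxra8 overlapped. Around Zfp933, 5 of 11 probes did not overlap, among them both probes of Zfp984 (0.35 and 0.49) and 1 of Miip (-0.24). The 3 probes of Mfn2, which encodes a mitochondrial fusion protein, overlapped, with differences of 0.03, 0.03 and 0.00. Around Fbxo44, Mad2l2, a subunit gene of DNA polymerase zeta, differed by -0.23, and the related F-box genes Fbxo6 and Fbxo2 overlapped. With median scaling the separating probes of Pusl1, Ube2j2, Miip, Mad2l2 and Zfp979 no longer separated the sexes, whereas those of Zfp534 and Zfp984 still did.

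Lists of functional relatives held no probe with separated sexes, which is also the common state at a background of 1.90%. The Integrator list held 14 tested probes, for other subunits and for the Ints11 paralogue Cpsf3. None of them separated the sexes and 0 were called for the father. An unadjusted p below 0.05 was found for 4, against 34.8% of all tested probes here and in the lists that follow. The median father difference of the 14 was -0.10, against -0.02 over all tested probes. The 5 probes of the GLTP family gave 0 and 0 (1 at an unadjusted p below 0.05), with a median of -0.26. The 10 probes of other F-box and SCF genes also gave 0 and 0 (6 at an unadjusted p below 0.05), with a median of -0.11. None of the 5 probe pairs in these lists was discordant.

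In the list of zinc finger genes drawn up around the Zfp933 cluster, which also held Zfp983 and the KRAB cofactor gene Trim28 from other chromosomes, the sexes did come apart. On chromosome 4 it held 15 tested probes from 9 genes, of which 8 had no overlap, 6 of them higher in females. The probes of Zfp983 and Trim28 overlapped. Female minus male differences were -1.22 for Zfp982 and -0.60 for Zfp979 A_55_P2037081, against 0.99 for Zfp534 A_55_P2169938 and 0.56 for Zfp985. Zfp981 had 2 of 3 probes without overlap, higher in females by 0.98 and 0.60. Zfp979 A_55_P2037081 lost its separation with median scaling and Zfp985 with quantile normalisation and normexp. The differences given above for Zfp982, Zfp979, Zfp534, Zfp985 and Zfp981 kept their direction under these 3 settings. For the father 0 of the 15 were called (5 had an unadjusted p below 0.05), with a median difference of 0.32 (0.21 over all 17 probes of the list) and the widest at 1.00 for Rex2 (limma adjusted p = 0.0304). None of the 6 pairs among the 15 was discordant, against 3.0% of all pairs.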

How the data were processed

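RNA of 8 single E8.5 embryos was hybridised to Agilent SurePrint G3 Mouse GE 8x60K one-colour arrays. The authors extracted background-subtracted, spatially detrended intensity values in Agilent Feature Extraction (version 11.0.1.1). These deposited intensities (processed signal, median signal and background) were the input. The deposited table of processed intensities differed from the scanner values by at most 0.497%. Outlier spots were removed, log2 was taken and the 75th percentile of each array subtracted. Presence was Agilent's call of a spot well above background. Probes were named through RefSeq accessions, which placed 27235 probes. All 8 member probes had 1 spot and 0 outlier flags, and no spot was saturated. Father and sex were fitted with limma 3.58.1 in R 4.3.3 (lmFit, eBayes, Benjamini-Hochberg), without a replicate block. The number of arrays, 4 per father, limits the precision. The script was tested on simulated data. The reference level for undetected females was the lowest signal among detected probes of each array (or the probe's own, if higher).

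The text names all member probes, the 3 probes of other genes most similar to each with a range of at least 2, the 3 neighbours on each side and 4 gene lists. The members and lists were chosen with earlier results of these data known. Alternatives were median scaling, quantile normalisation, normexp (offset 50, on median signals because mean signals were not used here), filters, a replicate block, the identifier number as a random block and leaving out each embryo. Raising signals to the detection floor, and the shares without overlap of the sexes under other settings, were added after seeing the data.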

Additional observations from a re-analysis of the deposited data

Results flagged for a closer look

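In groups of 4 embryos a sample was singled out where its gap to the nearest other exceeded Dixon's 95% limit. Of 48 groups examined 4 were singled out, and 2.4 would be by chance. Zfp933 A_52_P694988 was -1.244 in HOM father replicate 2 against -0.32 to -0.25 in the other HOM father embryos. The Zfp933 probe difference was -2.827 in the female HOM father replicate 1 against -2.09 to -2.05 in the other females. Fbxo44 A_55_P2085333 was -1.494 in the male HET father replicate 2 against -4.17 to -3.90 in the other males. The Fbxo44 probe difference in that embryo was -0.0903 against -2.50 to -2.43. The cause of these values was not tested.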

How the results depend on the processing

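The father calls over all probes numbered 145 with normexp, 228 with a filter requiring detection on all 8 arrays, 232 with a replicate block and 300 to 418 when 1 embryo was left out, against 376. Member probes called for the father numbered 0 to 1 when 1 embryo was left out. Sex calls numbered 5 with the filter on all 8 arrays, which removes probes absent from females, 2 with the replicate block and 12 to 17 with 1 embryo left out. Pairs called for the father numbered 0 with the replicate block and 10 to 20 with 1 embryo left out. Discordant pairs numbered 665 at a range of at least 1, 53 with normexp and 112 to 124 with 1 embryo left out. Deviations of the HOM father and HET father embryos with the same replicate number correlated at 0.189, -0.0861, -0.132 and 0.146, in replicate order. The positive values came from embryos of the same sex and the negative values from embryos of opposite sex. These correlations therefore cannot decide whether the replicate numbers pair the embryos. With the identifier number as a random block, the correlation within blocks was 0.302.

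The father change of Zfp933 A_52_P88793, 0.06, was -0.13 with median scaling, -0.037 with quantile normalisation, -0.013 with normexp and -0.073 with the identifier number as a random block. The Ints11 probe difference differed between fathers by 0.013 with normexp against -0.38. Leaving out 1 embryo, which unbalances the sexes, gave -1.90 to 1.14 for Ints11 A_55_P2145307, -0.94 to 0.82 for Cptp A_55_P2084522, -0.35 to 0.45 for Zfp933 A_52_P88793, -0.65 to 0.13 and -1.26 to 0.26 for Fbxo44 A_55_P2054350 and A_55_P2085333. For the probe differences it gave -1.75 to 1.37 for Ints11, -1.03 to 0.59 for Cptp and -0.65 to 0.19 for Fbxo44. Median scaling moved the median father change of all probes from -0.02 to -0.21.

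The share of other genes' probes without overlap of the sexes was 24.8% to 30.4% in bin 9 of chromosome 4, 9.60% to 13.6% in bin 10 and 3.19% to 5.11% over all probes when 1 embryo was left out, each against fewer embryos to overlap, and 17.6% to 22.4% in bin 9 under other normalisations.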
